A study of Mus musculus with 4 samples.

Results

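The genes described here encode actin, the myosin motors and the proteins that bind, cut, bundle or anchor actin filaments, as measured by RNA-seq in Myc-CaP cells. They were taken from the deposited gene count table by name, from families fixed in a list of symbols, and had to be annotated as protein-coding. The rule found 111 of 52636 genes, and 74 of them had a CPM (counts scaled to a common library size) of at least 1 in a library. Myc-CaP is a mouse prostate cancer cell line, labelled as FVB and Hi-Myc transgenic. The cells stably carried shRNAs against FAK, the focal adhesion kinase encoded by Ptk2 (shFAK), or negative control shRNAs (shNC). Whether each line is 1 clone or a pool is not given in the sources used here. Both lines received norepinephrine (NE) at 10 µM or vehicle for 24 h. That gave 4 groups, shFAK with NE, shFAK with vehicle, shNC with NE and shNC with vehicle, of 1 library each. All 4 share the FVB, Hi-Myc transgenic background. The study asked how the stress hormone and loss of the kinase affect gene expression. With 1 library a group, every difference below is between libraries and has no replicate check, and the effect of the hairpin cannot be told apart from other differences between the lines.

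FAK sits where integrins tie the matrix to the actin cytoskeleton. Actin monomers add to filaments with the help of profilin, the Arp2/3 complex and formins start branched and straight filaments, and cofilin and gelsolin cut them. Non-muscle myosin II pulls on filaments once its light chain is phosphorylated, tropomyosins, calponins and caldesmon coat them, and unconventional myosins carry cargo or tether membranes. In smooth muscle a separate set of isoforms does this work.

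The libraries held 23410486 to 29948640 counts, of which the 111 genes took 2.16% to 2.26%. The targeted gene was lower in shFAK. Ptk2 had 1248 counts in shFAK with NE and 1294 in shFAK with vehicle, against 3158 in shNC with NE and 3547 in shNC with vehicle. The log2 ratio of shFAK to shNC was -1.19 under NE (99% counting interval -1.31 to -1.06) and -1.29 under vehicle (-1.42 to -1.18). The shFAK library with NE stood apart. In it 119 genes had at least 8 counts while every other library had at most 2, against 4 to 9 such genes in the other libraries. The prostate markers Foxa1 and Hoxb13 were abundant, but the luminal markers Krt18, Epcam, Cdh1 and Cldn7 had at most 15 counts in any library. The summed level of 8 smooth muscle markers ran from 73.2 to 82.9 CPM and came mostly from Smtn, with Myh11 at 1 or 2 counts and Des at 0 to 3. In bulk RNA, fewer cells of a type and less RNA per cell cannot be told apart.

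A gene was called when its log2 ratio between a pair of libraries was at least 1.5-fold in size and the exact 99% counting interval left out 0. By this rule 5 of the 74 members were higher and 0 lower in shFAK under vehicle, where 3.69% of all 12351 genes tested were higher and 1.6% lower. Under NE 7 members were higher and 1 lower, against 8.11% and 3.15% of all genes. In both hairpin pairs 3 members were higher and 0 lower, against 2.44% and 0.834% of all genes. As shares of the 74 members these are 6.76% higher under vehicle and 9.46% higher under NE, so that the members' count of calls differs from the background by a few genes. Myl9 is among the 5 higher under vehicle, and Myo15 and Myo15b are among the 7 higher under NE. Each of these passed the filter only through the shFAK library where it is high, so these shares are partly set by the filter. The 3 called in both pairs were Ablim1, Kank4 and Pfn2. The pairs share no library, and 63 of the 74 members (85.1%) had the same sign in both, against 78.6% of all genes.

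Ablim1 (ENSMUSG00000025085, mm10 chromosome 19, 57032733 to 57314919) encodes a LIM-domain protein that binds actin filaments. It was at 14.5 CPM in shFAK with NE and 15.5 CPM in shFAK with vehicle, against 3.23 CPM in shNC with NE and 3.24 CPM in shNC with vehicle. Both shFAK libraries were above both shNC libraries, and NE made no difference past the rule in either line. Its fold was 4.41 under NE (log2 2.14, interval 1.72 to 2.64) and 4.71 under vehicle (log2 2.23, 1.84 to 2.70).

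Kank4 (ENSMUSG00000035407, chromosome 4, 98754898 to 98817537) belongs to the KANK family, whose best-studied members link talin at focal adhesions to cortical complexes. Its level was 58.4 CPM in shFAK with NE and 64.5 CPM in shFAK with vehicle, against 22.3 CPM in shNC with NE and 24.2 CPM in shNC with vehicle. The fold was 2.61 under NE (log2 1.38, 1.205 to 1.57) and 2.66 under vehicle (log2 1.41, 1.25 to 1.58). The antisense gene Kank4os lies inside the span of Kank4, and the library kit does not mark strand. That gene held 31 and 39 counts in shFAK with NE and with vehicle, against 2 and 17 in shNC with NE and with vehicle, where Kank4 itself had 595 to 1711 counts a library.

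Pfn2 (chromosome 3, 57841895 to 57848079), the minor profilin of these cells, had 95 and 109 counts in shFAK with NE and with vehicle, against 67 and 75 counts in shNC with NE and with vehicle. The log2 ratio was 0.64 under NE (0.05 to 1.27) and 0.68 under vehicle (0.13 to 1.28), so the lower bounds lie near 0. The call under NE was lost without a filter on low counts and with a prior count of 10.

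**Figure D1:**
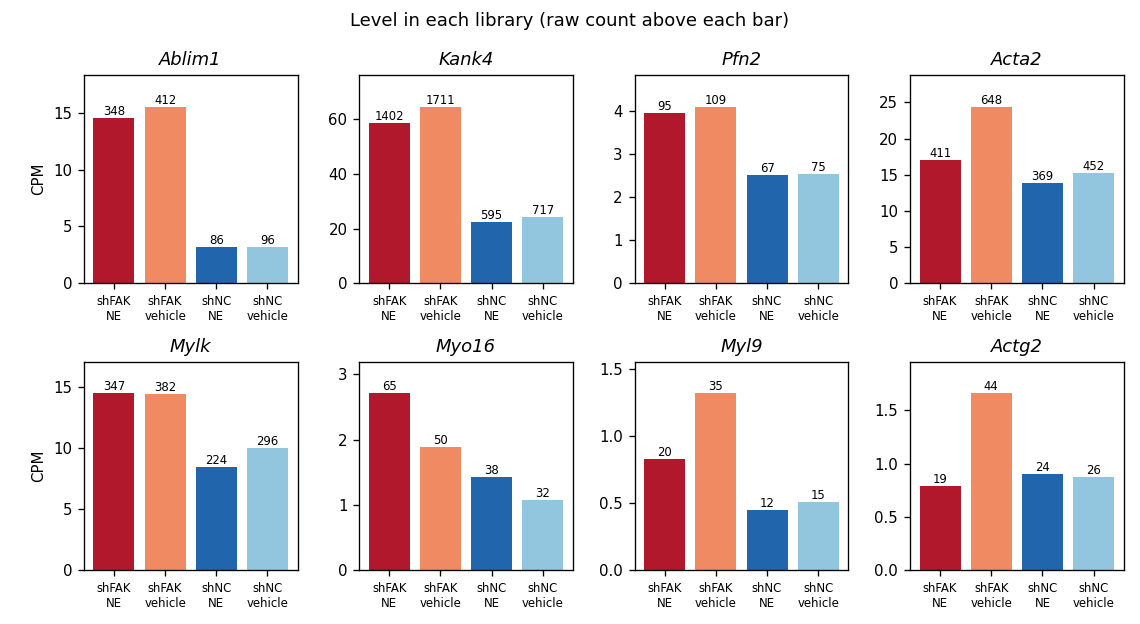
CPM in each of the 4 libraries for 8 of the members called in a hairpin or NE pair, with raw counts above the bars and 1 library a bar. Ablim1, Kank4 and Pfn2 are higher in both shFAK libraries, while Acta2, Myl9 and Actg2 have their highest bar in shFAK with vehicle, through which alone Myl9 and Actg2 passed the filter.

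The cytoplasmic actins were the most abundant members per length. Actb, which encodes beta-actin, stood at 919 CPM per kilobase in shFAK with NE and 959 in shFAK with vehicle, against 1133 in shNC with NE and 1109 in shNC with vehicle. Actg1, which encodes gamma-actin, stood at 661 and 703 CPM per kilobase in shFAK with NE and with vehicle, against 811 and 854 in shNC with NE and with vehicle. Both shFAK libraries were below both shNC libraries for each gene, by amounts short of the 1.5-fold rule. The log2 ratios of Actb were -0.30 under NE and -0.21 under vehicle, and those of Actg1 were -0.29 and -0.28. With each library's trend with gene length and GC content removed, Actb was at -0.20 and -0.16 and Actg1 at -0.18 and -0.23. Actg1 has 4 near-identical copies in the annotation, so its counts are uncertain.

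Of the muscle-type actins, Acta2 rose in shFAK under vehicle. Acta2 (chromosome 19, 34241090 to 34255336), smooth muscle alpha-actin, was at 17.1 CPM in shFAK with NE and 24.4 CPM in shFAK with vehicle, against 13.8 CPM in shNC with NE and 15.3 CPM in shNC with vehicle. It was called under vehicle (log2 0.68, 0.45 to 0.91) and not under NE (0.30, 0.04 to 0.58). Acta1, skeletal alpha-actin, had log2 ratios of 0.30 under NE and 0.34 under vehicle, with intervals that include 0. Actg2, smooth muscle gamma-actin, had 19 and 44 counts in shFAK with NE and with vehicle, against 24 and 26 counts in shNC with NE and with vehicle. Only its shFAK library with vehicle stood out, at a log2 ratio of 0.86 to shNC that was not called (-0.03 to 1.91). Actc1, cardiac actin, was at 0 counts in every library. The summed level of the smooth muscle list, which includes Acta2, Actg2 and Cnn1, was 78.6 and 82.9 CPM in shFAK with NE and with vehicle, against 77.8 and 73.2 CPM in shNC with NE and with vehicle. The summed level of 6 fibroblast markers was 13.5 and 13.3 CPM in shFAK with NE and with vehicle, against 7.65 and 9.72 CPM in shNC with NE and with vehicle, with Dcn and Lum at 0. Pdgfra gave nearly all of the fibroblast sum, at 12.45 and 12.29 CPM in shFAK with NE and with vehicle. In shNC it was at 7.43 and 9.32 CPM with NE and with vehicle. Pdgfrb and Col1a2 had at most 2 counts in any library, and Col1a1 had 4 to 24. The part of these markers in the Acta2 ratio was not tested.

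Promoters are shown because many actin and myosin genes are known targets of serum response factor (SRF), which binds a sequence called the CArG box. Exact CArG boxes were searched in RefSeq promoter windows of build GRCm38.p6, from 250 bases before to 50 bases after each start. The box is its own reverse complement in form, so both strands are covered, and no other motif was searched. Windows were found for 66 of the 74 members, and 7 of them held a box (10.6%): Acta1, Actg1, Arpc4, Cnn2, Myl6, Myl9 and Myo1e. Of all 27025 genes with a window, 488 held one (1.81%), and of the 8840 genes tested with a window, 146 (1.65%). The 250 bases before the start of 3 of these members follow, 5′ to 3′ on the gene's strand, with the box in capitals.
Actg1, chr11:120348496-120348745, minus strand: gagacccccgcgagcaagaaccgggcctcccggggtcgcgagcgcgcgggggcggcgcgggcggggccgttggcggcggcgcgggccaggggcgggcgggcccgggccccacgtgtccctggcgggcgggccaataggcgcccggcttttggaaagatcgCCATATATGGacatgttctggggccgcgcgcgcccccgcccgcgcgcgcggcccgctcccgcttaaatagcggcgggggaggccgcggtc
Acta1, chr8:123894776-123895025, minus strand: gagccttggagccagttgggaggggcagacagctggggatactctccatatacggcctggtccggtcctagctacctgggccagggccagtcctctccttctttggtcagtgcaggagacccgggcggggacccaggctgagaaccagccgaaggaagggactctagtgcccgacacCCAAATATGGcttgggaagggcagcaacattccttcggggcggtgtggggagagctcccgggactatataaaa
Myl9, chr2:156775214-156775463, plus strand: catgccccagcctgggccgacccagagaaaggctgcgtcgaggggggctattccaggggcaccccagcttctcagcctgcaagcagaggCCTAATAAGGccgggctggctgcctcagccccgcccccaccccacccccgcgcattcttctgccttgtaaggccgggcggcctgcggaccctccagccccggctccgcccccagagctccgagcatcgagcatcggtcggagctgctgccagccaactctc
The first base of the box lies 90 bases before the start in Actg1, 73 in Acta1 and 161 in Myl9. These 3 genes were chosen because their hairpin ratios differ in sign, negative in Actg1 and positive in Acta1 and Myl9. They do not represent the members with a box, since Arpc4, Cnn2, Myl6 and Myo1e were negative in both hairpin pairs. The Myl6 interval under vehicle and both Acta1 intervals include 0. Myl9 rested on 12 to 35 counts and passed the filter only through shFAK with vehicle. A match is a description of letters. No exact match was found in the windows of Ablim1, Kank4, Pfn2, Mylk and Acta2.

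Proteins that bind actin monomers or cut filaments had a group median of -0.39 under NE and -0.20 under vehicle on the log2 scale, against 0.02 and 0.00 over all genes. With each library's trend with gene length and GC content removed, the medians were -0.26 and -0.14, against 0.01 and -0.002 over all genes. Pfn1, the main profilin, stood at 372 and 355 CPM per kilobase in shFAK with NE and with vehicle, against 538 and 450 in shNC with NE and with vehicle. Its log2 ratios were -0.53 under NE (-0.56 to -0.50) and -0.34 under vehicle (-0.37 to -0.31), or -0.37 and -0.27 with the trend removed. Cfl1 and Cfl2 encode the non-muscle and muscle cofilins. Cfl1 was at 735 and 757 CPM per kilobase in shFAK with NE and with vehicle, against 961 and 873 in shNC with NE and with vehicle. Cfl2 had log2 ratios of -0.41 under NE and -0.47 under vehicle, or -0.41 and -0.53 with the trend removed. The shFAK libraries were below the shNC libraries for all 3 genes, without a call for any of them. Gsn, gelsolin, had log2 ratios of -0.11 under NE and 0.07 under vehicle.

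Shares within paralogs do not depend on how the libraries are scaled. Pfn2 made up 0.440% of profilin counts in shFAK with NE (95% Wilson interval 0.360% to 0.538%) and 0.479% in shFAK with vehicle (0.397% to 0.577%). In shNC its share was 0.194% with NE (0.153% to 0.246%) and 0.234% with vehicle (0.186% to 0.293%). The shFAK and shNC intervals do not overlap. The share of Cfl2 among cofilin counts was 3.988% in shFAK with NE and 3.999% in shFAK with vehicle, against 4.05% in shNC with NE and 4.78% in shNC with vehicle, so that only the shNC vehicle library differed beyond counting error. Cfl1 has 2 annotated copies and overlaps Snx32 on the opposite strand over 16.5% of its exon bases, so this share is uncertain. The intervals cover counting error only.

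**Figure D2:**
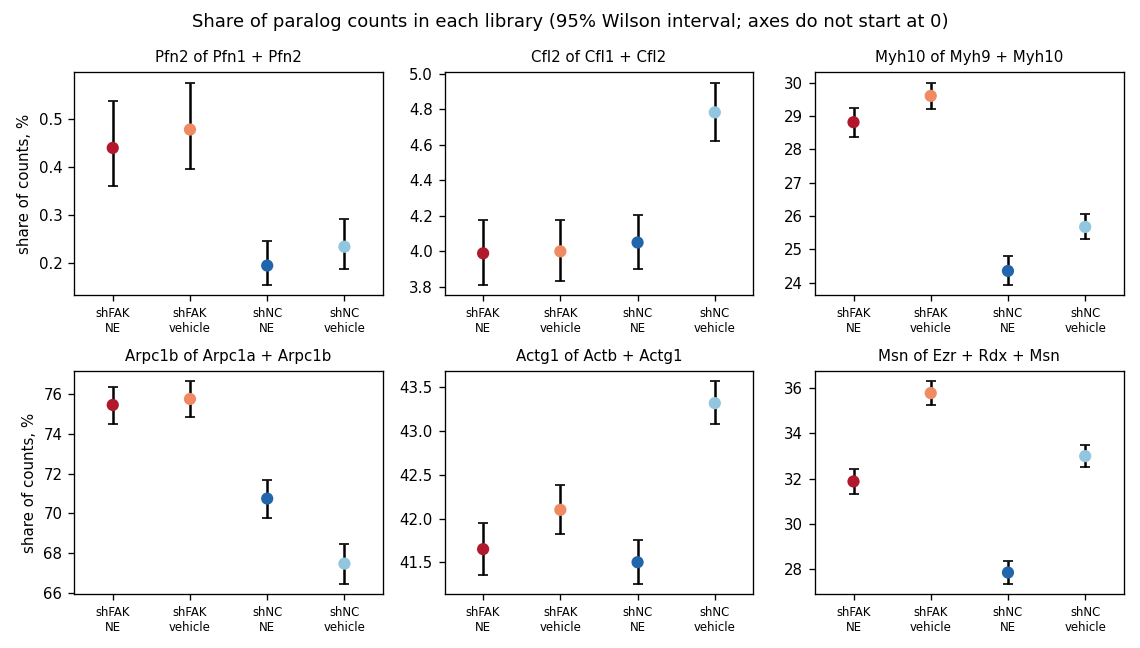
Share of a paralog's counts in each library, in percent, with 95% Wilson intervals as bars and axes that do not start at 0. Pfn2, Myh10 and Arpc1b have both shFAK libraries above both shNC libraries, and Msn is lower with NE in each line.

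Of 14 genes of the Arp2/3 complex and its activators, 13 passed the filter and 0 were called in any pair. Their median was -0.01 under NE and -0.02 under vehicle. Arpc2, the most abundant subunit per length, was at 110 and 112 CPM per kilobase in shFAK with NE and with vehicle, against 123 and 115 in shNC with NE and with vehicle. Arpc1b and Arpc1a encode alternative forms of one subunit. Arpc1b took 75.5% of their counts in shFAK with NE and 75.8% in shFAK with vehicle, against 70.7% in shNC with NE and 67.5% in shNC with vehicle. Arpc1b overlaps Pdap1 on the opposite strand over 18.2% of its exon bases and has 2 annotated copies, so its share is uncertain. Wasl and Wasf2, which switch the complex on, had log2 ratios of 0.36 and 0.27 under NE and 0.30 and 0.26 under vehicle. Cttn, cortactin, was at -0.01 and -0.02.

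None of the 6 formins and Ena/VASP proteins met the rule. Vasp, the most abundant of them per length, was level at 98.6 and 101 CPM per kilobase in shFAK with NE and with vehicle, against 101 and 96.6 in shNC with NE and with vehicle. The formin Diaph2 had log2 ratios of 0.44 under NE and 0.45 under vehicle, or 0.15 and 0.30 with each library's trend with gene length and GC content removed, while Diaph1 was at 0.04 and -0.07 and Diaph3 at 0.02 and -0.20. Enah was at 0.26 under NE and 0.30 under vehicle as counted, but its ratio under NE changed sign, to -0.18, and that under vehicle was 0.08 once the same trend was removed. Evl was at -0.02 and -0.32.

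Of 25 conventional myosin genes (heavy chains, light chains and the light chain kinase), 9 passed the filter. The sarcomeric heavy chains among the others had at most 8 counts in a library, and the smooth muscle heavy chain Myh11 had 1 or 2. Myh9 and Myh10 encode the heavy chains of non-muscle myosin IIA and IIB. Myh9 was at 92.8 and 102 CPM per kilobase in shFAK with NE and with vehicle, against 81.3 and 101 in shNC with NE and with vehicle. Myh10 was at 46.4 and 53.3 in shFAK with NE and with vehicle, against 32.3 and 43.3 in shNC with NE and with vehicle. Myh10 made up 28.8% of the counts of both in shFAK with NE and 29.6% in shFAK with vehicle, against 24.4% in shNC with NE and 25.7% in shNC with vehicle. The shFAK intervals (lower bounds 28.4% and 29.2%) lie above those of shNC (upper bounds 24.8% and 26.1%). The log2 ratio of Myh10 was 0.52 under NE and 0.30 under vehicle, short of the rule, and 0.27 and 0.18 once the trend with length and GC was removed. That of Myh9 was 0.19 under NE and 0.02 under vehicle, and changed sign, to -0.09 and -0.12, with the trend removed.

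Mylk, myosin light chain kinase, was at 14.5 CPM in shFAK with NE and 14.4 CPM in shFAK with vehicle, against 8.40 CPM in shNC with NE and 9.99 CPM in shNC with vehicle. It was called under NE (log2 0.78, 0.46 to 1.11) and not under vehicle (0.52, 0.24 to 0.82). Once each library's trend with gene length and GC content was removed, the NE value was 0.54 and was no longer called. The regulatory light chain Myl9 rested on 20 and 35 counts in shFAK with NE and with vehicle, against 12 and 15 counts in shNC with NE and with vehicle. It was called under vehicle (log2 1.26, 0.22 to 2.67). It reached 1 CPM only in shFAK with vehicle, so it entered the comparison through the library in which it is higher. Its mean level of 0.777 CPM lies below the minimum for detailed naming, so it was chosen after its values were seen. The main regulatory light chain, Myl12a, was at 198 and 210 CPM per kilobase in shFAK with NE and with vehicle, against 238 and 222 in shNC with NE and with vehicle. Myl12a and Myl12b are annotated as near-identical in part, so the split of counts between them is uncertain.

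Unconventional myosins had a group median of 0.37 under NE and 0.19 under vehicle. As counted, that under NE was the highest of the 9 role groups. Of 25 genes 16 passed the filter, and 14 of these had a positive ratio under NE and 10 under vehicle. Myo15 and Myo15b are among the 14 but passed the filter only through shFAK with NE, so their sign under NE was fixed in advance. Both also enter the group medians. Of all 12351 genes tested, 6477 were positive under NE and 6247 under vehicle. Once the trend with length and GC was removed, the medians of the unconventional myosins were 0.14 and 0.06. The LIM-domain and KANK genes then had the highest median under NE, at 0.30. Myo1c, a membrane-tethering myosin and the most abundant of the group per length, was at 90.4 and 102 CPM per kilobase in shFAK with NE and with vehicle, against 74.8 and 85.6 in shNC with NE and with vehicle. Myo5a, Myo5c and Myo7a, which carry organelles or build cell protrusions, had log2 ratios of 0.43, 0.57 and 0.42 under NE and of 0.21, 0.22 and 0.26 under vehicle. With the trend removed these were 0.08, 0.33 and 0.24 under NE and 0.05, 0.11 and 0.18 under vehicle. Myo1e was at -0.19 and -0.26.

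The calls in this group were low-count genes under NE. Myo16 had 65 and 50 counts in shFAK with NE and with vehicle, against 38 and 32 counts in shNC with NE and with vehicle (log2 0.89 under NE, 0.15 to 1.73). Its call was lost once the trend with length and GC was removed. Myo1h was called lower under NE (-0.61, -1.20 to -0.07), with 73 counts in shFAK and 125 in shNC, but the gene Kctd10 overlaps 25.8% of its exon bases on the opposite strand. The call of Myo1h was lost with library totals alone and with a prior count of 10. Myo15, a motor of inner ear stereocilia, and Myo15b were higher with NE in shFAK than in each other library. Myo15 had 28 and 7 counts in shFAK with NE and with vehicle, against 1 and 8 counts in shNC with NE and with vehicle. Myo15b had 63 and 5 counts in shFAK with NE and with vehicle, against 3 and 13 counts in shNC with NE and with vehicle. The ratios of both genes to shNC under NE, 3.46 (1.90 to 12.7) and 3.85 (2.58 to 7.73) on the log2 scale, therefore rest on the shFAK library with NE, which stood apart. Neither gene is among the 119 seen mainly there. Both reached 1 CPM only in that library and so entered the comparison through it. Both genes lie below the minimum level for naming and were chosen after their values were seen.

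**Figure D3:**
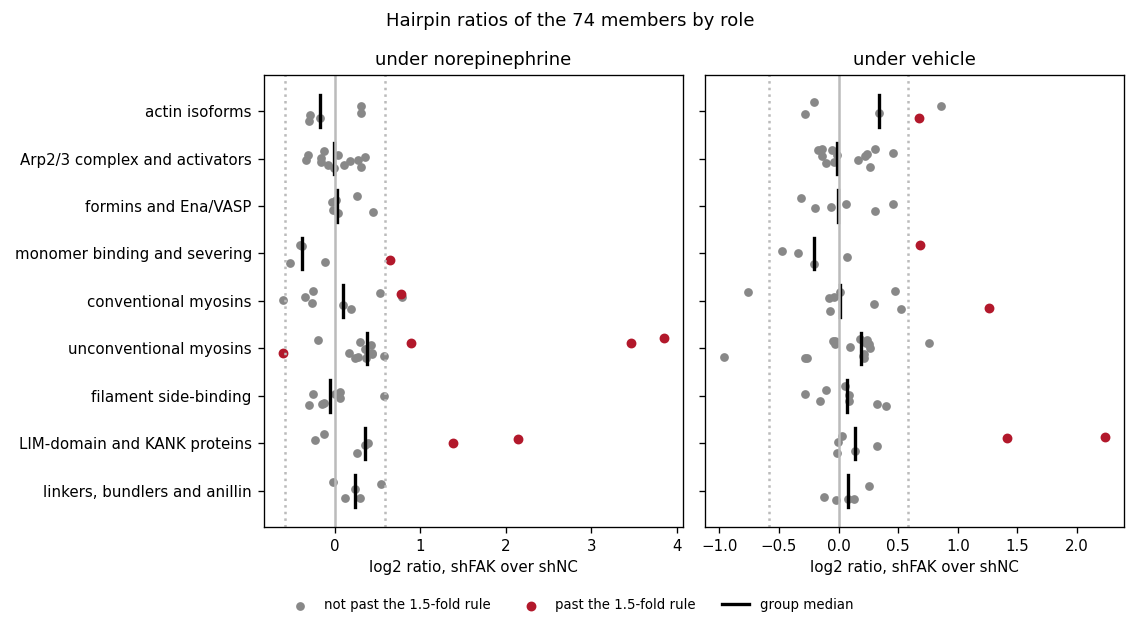
log2 ratio of shFAK to shNC for the 74 members by role, under NE at left and vehicle at right. Points are genes, red where they passed the 1.5-fold rule, dotted lines mark 1.5-fold, and black bars are group medians. The median of unconventional myosins lies at 0.37 under NE and that of monomer binding and severing proteins at -0.39. With the length and GC trend removed, which is not drawn, these medians were 0.14 and -0.26. The unconventional myosins include Myo15 and Myo15b, which passed the filter only through shFAK with NE.

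Tropomyosins, transgelins, calponins and caldesmon gave 8 of 10 genes past the filter and 0 calls in any pair. Tagln2, the most abundant per length, was at 289 and 278 CPM per kilobase in shFAK with NE and with vehicle, against 315 and 268 in shNC with NE and with vehicle. Its smooth muscle relative Tagln had only 4 to 7 counts a library, and the smooth muscle calponin Cnn1 had 6 to 11. Cald1, caldesmon, had log2 ratios of 0.57 under NE and 0.32 under vehicle, or 0.28 and 0.19 with the length and GC trend removed. Cnn3 was at -0.25 and -0.28 and Cnn2 at -0.31 and -0.16. With the trend removed Cnn3 was at -0.19 and -0.25, and Cnn2 at -0.18 and -0.10. Tpm3 took 28.2% of tropomyosin counts in shFAK with NE and 27.7% in shFAK with vehicle, against 30.9% in shNC with NE and 30.6% in shNC with vehicle. Both genes have an annotated copy. Tpm4 took 31.5% and 31.3% in shFAK with NE and with vehicle, against 29.6% and 30.2% in shNC with NE and with vehicle.

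Of the other LIM-domain and KANK genes, Kank2 was at 21.8 and 21.0 CPM per kilobase in shFAK with NE and with vehicle, against 17.1 and 16.7 in shNC with NE and with vehicle. Its log2 ratios of 0.35 under NE and 0.33 under vehicle were well below those of Kank4. Kank1 had at most 11 counts. Pdlim2 and Pdlim7 were at -0.23 and -0.13 under NE and both at -0.01 under vehicle. Ablim3, Pdlim1 and Pdlim3 had at most 3 counts in any library.

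Among membrane linkers and bundlers 5 of 7 genes passed the filter, with 0 calls in any pair. Ezr, ezrin, was at 178 and 169 CPM per kilobase in shFAK with NE and with vehicle, against 181 and 172 in shNC with NE and with vehicle. Anln, anillin, which organises the contractile ring of dividing cells, had log2 ratios of 0.24 under NE and 0.08 under vehicle. Svil, supervillin, was at 0.54 and 0.25, or 0.28 and 0.13 with the length and GC trend removed. The bundler Fscn1 had 8 to 23 counts and was not tested.

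An additive model of hairpin and treatment over all 4 libraries was fitted in edgeR by quasi-likelihood, with Benjamini-Hochberg adjustment over all genes. It has 1 residual degree of freedom, and its p-values hold only where both lines respond alike to NE. The spread was pooled over genes and is the departure from additivity. The p-values and SE therefore measure no spread between replicate cultures or between lines. The model called 30 members higher and 10 lower in shFAK, against 19.5% and 16.2% of all genes. Among those called lower were Pfn1 (log2 -0.44 ± 0.08 SE, adjusted p = 1.13e-06), Cfl2 (adjusted p = 1.01e-05), Cfl1, Actg1 and Actb (adjusted p = 0.00283 by edgeR). Among those called higher were Ablim1 (2.21 ± 0.14), Kank4 (1.40 ± 0.09), Mylk (0.65 ± 0.11) and Myh10 (0.41 ± 0.09), and 12 of the 16 unconventional myosins. The 12 include Myo15 and Myo15b, which passed the filter only through shFAK with NE. Their NE ratios differ in sign between the lines, so the model's condition does not hold for them. The NE responses of Pfn1, Cfl1, Actb and Myh10 also differed between the lines beyond counting error. Those of Cfl2, Actg1, Ablim1, Kank4 and Mylk did not. Myl9, also called higher, passed the filter only through shFAK with vehicle. Once the trend with length and GC was removed, 25 were called higher and 11 lower, of which 20 and 7 were the same genes. Of all 12351 genes, 2174 were then called higher and 2144 lower. The unconventional myosins then gave 7 higher, with Myo15 and Myo15b among them, and 2 lower. Over all members tested, and without the trend removed, a threshold of 1.2-fold in the test left 6 higher and 1 lower. The share of all genes called at that threshold is not given here.

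The ratios moved with gene length. Over the 69 members with a mean of at least 1 CPM, the Spearman correlation of the log2 ratio with the deposited gene length was 0.65 for the hairpin pair under NE, 0.31 under vehicle, -0.67 for NE in shNC and -0.34 for NE in shFAK. All 12351 genes gave 0.47, 0.32, -0.49 and -0.29 in the same order. The points share libraries and depth, so these values are descriptions. Once the trend was removed, the members gave 0.22, 0.06, -0.20 and 0.09. All 19 members over 8 kb had a positive hairpin ratio under NE and a negative NE ratio in shNC, and 16 had each sign once the trend was removed. Both ratios use the shNC library with NE, so their signs are linked. The share among all genes over 8 kb is not given here, so these counts have no background beside them. That length was chosen after the values were seen.

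**Figure D4:**
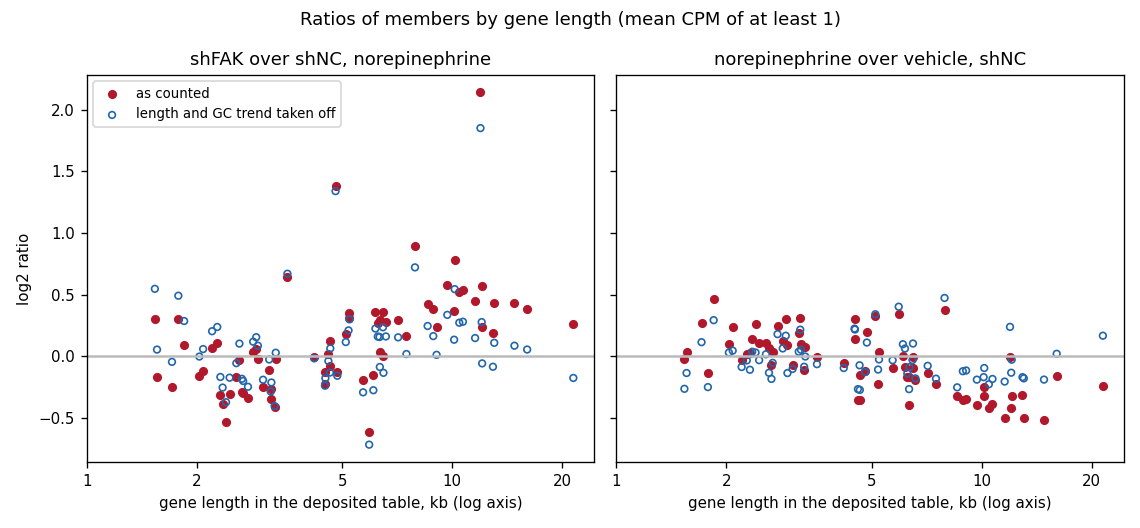
log2 ratio against gene length in kb on a log axis, for the 69 members with a mean of at least 1 CPM, for shFAK over shNC under NE at left and NE over vehicle in shNC at right. Filled points are the ratios as counted, open points the same genes after removal of the length and GC trend. The filled points climb with length at left (Spearman correlation 0.65) and descend at right (-0.67).

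The NE comparison asked how the hormone moved these genes in each line. In shFAK 2 members were called higher, Myo15 and Myo15b, and 1 lower, Actg2, against 1.27% and 0.429% of all genes. All 3 reached 1 CPM in only 1 library, Myo15 and Myo15b in shFAK with NE and Actg2 in shFAK with vehicle, so each passed the filter through the library where it is high and the counts support nothing further. In shNC 0 members were called in either direction, against 1.56% higher and 2.16% lower among all genes. In both lines together 0 were called higher or lower, against 0.154% and 0.0891% of all genes. The median over the 74 members was -0.05 in shFAK and -0.07 in shNC.

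Actg2 had 19 counts with NE and 44 with vehicle in shFAK (log2 -1.001, interval -2.20 to -0.03), a difference tied to its passing the filter through the vehicle library, and was at 24 counts with NE and 26 with vehicle in shNC. Acta2 was at -0.51 in shFAK (-0.75 to -0.28), short of the rule, and at -0.14 in shNC (-0.41 to 0.12). Myl9 was at -0.62 in shFAK and -0.15 in shNC, with intervals that include 0.

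The additive model of edgeR called 1 member higher and 12 lower with NE, against 5.04% and 7.29% of all genes. The 1 higher was Myo15b, which passed the filter only through shFAK with NE. Its NE log2 ratio was 3.36 in shFAK and -1.46 in shNC. The lines thus did not respond alike, and the call cannot be read as a shared NE effect. Those called lower included Myo5a (log2 -0.41 ± 0.09, adjusted p = 0.000205), Msn, moesin (-0.32 ± 0.09, adjusted p = 0.00543), Myh10 (-0.31 ± 0.08, adjusted p = 0.00593) and Myh9 (-0.23 ± 0.08, adjusted p = 0.0341 by edgeR). The others were Acta2, Anln, Cald1, Diaph2, Diaph3, Enah, Myo7a and Myo9a. For Myo5a, Msn, Myh10 and Myh9 the NE ratios were negative in both lines but larger in size in shNC. Their differences, shFAK minus shNC, were 0.22 (0.10 to 0.33), 0.16 (0.09 to 0.24), 0.22 (0.15 to 0.29) and 0.18 (0.13 to 0.22). These 99% counting intervals leave out 0, so the model's condition does not strictly hold for these genes. Once the trend was removed, 6 were called lower and 3 higher, and of the 12 only Acta2, Msn, Myh10 and Myo7a were among the 6. Of all 12351 genes, 472 were then called lower and 539 higher. Myo5a then had an adjusted p of 0.0715 by edgeR. Msn made up 31.9% of ezrin, radixin and moesin counts with NE and 35.8% with vehicle in shFAK, and 27.8% with NE and 32.99% with vehicle in shNC, a lower share with NE in both lines beyond counting error.

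**Figure D5:**
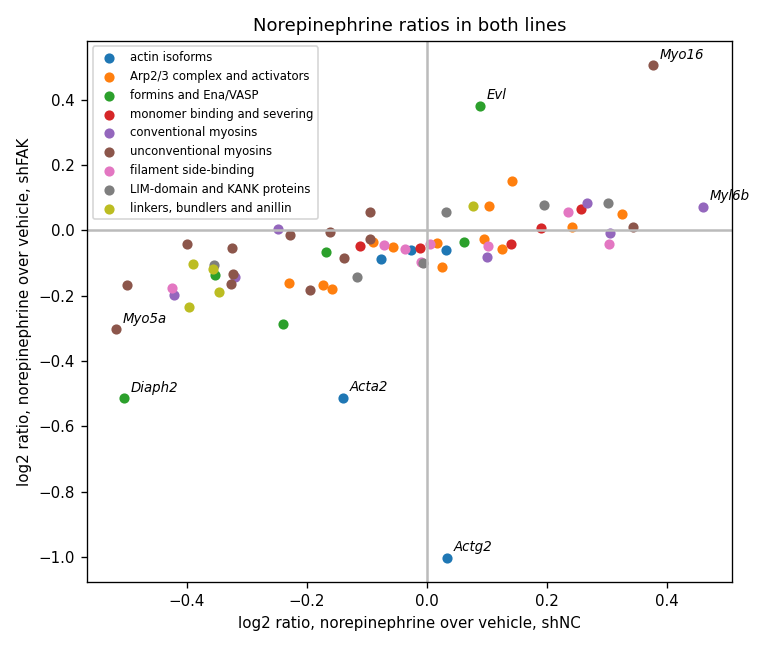
log2 ratio of NE to vehicle in shNC (x axis) and in shFAK (y axis) for the 69 members with a mean of at least 1 CPM, coloured by role. Actg2 lies lowest on the y axis at -1.001 with 0.03 on the x axis, and Myo5a lies at -0.52 in shNC and -0.30 in shFAK.

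The difference of the NE responses, shFAK minus shNC, was called positive for 2 members and negative for 0, against 1.19% and 0.68% of all genes. The 2 were Myo15b, at 4.81 (2.39 to 7.23), and Myo15, at 3.49 (0.67 to 6.31), which both passed the filter only through shFAK with NE. Actg2 was at -1.03 (-2.44 to 0.37) and Acta2 at -0.37 (-0.72 to -0.02), neither called. With a mean of at least 1 CPM required, an alternative chosen after seeing the data, 0 members were called in either direction. That filter removes Myo15b (mean 0.841 CPM) and Myo15 (0.434 CPM), so the result reflects their removal and is no check on their calls.

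Other genes of the pathway were read from lists chosen by function. Of 19 GTPases, kinases, phosphatases and regulators that act on actin and myosin, 1 was higher under NE and 0 under vehicle in shFAK, and 0 were lower. Of all genes, 8.11% were higher under NE and 3.69% under vehicle, and 3.15% and 1.6% were lower. The additive model of edgeR called 8 higher and 1 lower in shFAK (all genes 19.5% and 16.2%), and 0 higher and 4 lower with NE (all genes 5.04% and 7.29%). Once the length and GC trend was removed it called 5 higher and 3 lower in shFAK, and 0 higher and 2 lower with NE. Of all 12351 genes it then called 2174 higher and 2144 lower in shFAK, and 539 higher and 472 lower with NE. Rock1 and Rock2 encode kinases that act on the myosin light chain. They had log2 ratios of 0.60 and 0.52 under NE and of 0.33 and 0.45 under vehicle, and only Rock1 under NE was called. With the trend removed Rock1 was at 0.45 under NE and no longer called, and Rock2 was at 0.18. Rock2 had 4909 and 6575 counts in shFAK with NE and with vehicle, against 3802 and 5360 counts in shNC with NE and with vehicle. The cofilin phosphatase Ssh2 was the 1 gene of the list called with NE in shNC, at -0.60, where 2.16% of all genes were lower. With the trend removed Ssh2 was at -0.24 and not called. Of 36 capping, crosslinking and other binding proteins, 32 passed the filter. Under vehicle 0 were higher in shFAK (all genes 3.69%), and under NE 2 were higher (all genes 8.11%). These were Sptbn1, a spectrin (0.78 under NE, 0.55 under vehicle), and Add3, an adducin (0.77, 0.34). With the length and GC trend removed, Sptbn1 was at 0.39 under NE and not called, and Add3 was at 0.70 and still called. Sptbn1 had 8147 and 10288 counts in shFAK with NE and with vehicle, against 5284 and 7855 counts in shNC with NE and with vehicle. The additive model of edgeR called 7 higher and 2 lower in shFAK, beside 19.5% and 16.2% of all genes, and 2 higher and 6 lower with NE, beside 5.04% and 7.29%. With the trend removed the counts were 7 higher and 5 lower in shFAK, and 0 higher and 3 lower with NE. The crosslinker Flna was called lower with NE in the additive model, with a log2 ratio of -0.24 in shFAK and -0.41 in shNC.

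Of 12 SRF and MRTF genes, 10 passed the filter. Under vehicle 1 was called higher in shFAK and 1 lower (Egr1, -0.94), and under NE 3 were called higher (Fhl1, Mkl2 and Vcl) and 0 lower. Of all genes, 3.69% were higher and 1.6% lower under vehicle, and 8.11% and 3.15% under NE. With the length and GC trend removed, Mkl2 (0.46) and Vcl (0.45) were not called under NE, and Fhl1 (1.27) was. The additive model of edgeR called 4 higher and 4 lower in shFAK, where 19.5% and 16.2% of all genes were called, and 0 higher and 4 lower with NE, where 5.04% and 7.29% were. With the trend removed it called 4 higher and 4 lower in shFAK, and 0 higher and 3 lower with NE. Of all 12351 genes it then called 2174 higher and 2144 lower in shFAK, and 539 higher and 472 lower with NE. Fhl1, a LIM protein of muscle, had 437 and 631 counts in shFAK with NE and with vehicle, against 201 and 256 counts in shNC with NE and with vehicle. It was called in both hairpin pairs (log2 1.26 and 1.45). Srf itself was at -0.37 under NE and -0.30 under vehicle, and the matricellular genes Cyr61 and Ctgf were at -0.58 and -0.46 under NE and -0.49 and -0.46 under vehicle. All 3 were called lower in shFAK by the additive model of edgeR, together with Egr1, which rested on 31 to 79 counts. Vcl, vinculin, was higher in shFAK under NE (0.65) and was lower with NE in shNC (-0.74), with -0.29 in shFAK. Both calls were lost with the trend removed, at 0.45 and -0.56. Vcl has a near-identical copy in the annotation.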

How the data were processed

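RNA-seq was done on 4 cultures, 1 library each. The values deposited by the authors are whole-number read counts for each gene, beside its coordinates and gene length. The submitters' processing notes name HISAT2 2.0.5, the mm10 build and featureCounts 1.5.0-p3. How strand and multi-mapping reads were handled is not given in the sources used here, and the NEBNext Ultra kit named in the labels' protocols does not mark strand. Columns were matched to samples by title.

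Effective library sizes came from TMM factors of edgeR 4.0.16 in R 4.3.3, over the 12351 genes with at least 1 CPM in a library. log2 ratios used a prior count of 2, and exact Clopper-Pearson intervals at 99%. They cover counting error only, since PCR reads lacking molecular identifiers can repeat a molecule. The length and GC trend was a spline of each library on gene length and longest-transcript GC (GENCODE M21). Copies were other annotated genes with at least 95% identity over at least 100 bases, by minimap2 2.31. DESeq2 1.42.0 gave alternatives. The calculations were checked on simulated data. Levels between genes are CPM per kilobase of the deposited gene length.

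The members, the lists and the rules were chosen with earlier results of these data known. Values in every library were given by rule for members called in both pairs, for up to 6 more per direction and pair at a mean of at least 1 CPM, for up to 4 per direction of the difference of responses, for the most abundant member of each role per length, and from the other lists for up to 4 genes. Other members were named within their role. Of the 74 members, 6 reached 1 CPM in only 1 library, and 17 have an annotated copy. Values of a few genes are not reported here.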

Additional observations from a re-analysis of the deposited data

Results flagged for a closer look

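The response of Myo15b to NE was 4.81 higher on the log2 scale in shFAK than in shNC, and that of Myo15 was 3.49 higher. Each was drawn out because the ratio was positive in shFAK (3.36 and 1.87) and negative in shNC (-1.46 and -1.62, neither called). The opposite directions rest on 1 library a group and were not tested beyond counting error. Leaving out the shFAK library with NE leaves no value for either difference, and the shFAK to shNC ratios under vehicle, which do not use it, were -0.96 and -0.03.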

How the results depend on the processing

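No paired analysis was possible because each group has 1 library, and no replicate could be left out. Of the 230 summary values recomputed, 200 stayed within 1.5 times the reported count or within the 95% interval of the median. For shFAK against shNC under NE, library totals alone gave 11 members higher and 0 lower, a CPM of at least 5 gave 4 and 0, and the 2-fold threshold gave 4 and 0. The 1 lower call, Myo1h, was also lost with a prior count of 10. With copied genes left out 0 were lower, but that setting removes Myo1h itself, which has an annotated copy. A CPM of at least 5 removes it too, so neither setting is a check on its call. Under vehicle, a CPM of at least 5 and the 2-fold threshold each gave 3 higher. For NE in shFAK, a CPM of at least 5 gave 0 higher and 0 lower, and a mean CPM of at least 1, added after the data were seen, gave 0 higher. The difference of responses had 0 higher under both filters. Both filters remove Myo15 and Myo15b, and a CPM of at least 5 also removes Actg2. These counts therefore reflect the removal of the called genes and are no check on their calls. The median of NE in shFAK was -0.0313 with upper-quartile factors.

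For the additive model of the hairpin, a 1.2-fold threshold gave 6 higher and 1 lower, the DESeq2 Wald test 14 and 6, and library totals alone 6 lower. For NE, the 1.2-fold threshold gave 0 higher and 0 lower, DESeq2 0 and 1, removal of the length and GC trend 3 and 6, library totals and a CPM of at least 5 gave 0 higher, and no filter gave 7 lower. Shares of all genes under the 1.2-fold threshold, DESeq2, library totals and the other filters are not given here. The cause of these moves was not tested. No pair ratio past the 1.5-fold rule changed sign among the members, and 13 values changed side of the rule. Ratios short of the rule did change sign with the length and GC trend removed, as for Enah (-0.18 under NE in shFAK against shNC, and 0.17 for NE in shNC) and Myh9 (-0.09 under NE). Counts below about 100 a library, as for Pfn2, Myl9, Actg2 and Myo16, left intervals wider than 1 on the log2 scale.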
